A study of Rattus norvegicus with 82 samples.

Results

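The comparison of ADX with Sham in the rat septum rested on 8 of the 82 arrays of the series, 4 of ADX and 4 of Sham. Members were chosen by the region code S in the array title, with or without a letter b. Arrays with that letter are numbered here as replicate 2. Each treatment had 2 arrays labelled AM and 2 labelled PM. A further 4 septum arrays labelled pADX, again 2 AM and 2 PM, served as a reference only. The labels spell out neither treatment: ADX commonly abbreviates adrenalectomy, surgical removal of the adrenal glands, and a sham operation is its control, while the p in pADX is unexplained. Arrays are named here by treatment, time and replicate number, for example Sham AM1, and per-array values are listed in the order AM1, AM2, PM1 and PM2. They name the species, Rattus norvegicus, and give no strain, sex, age, interval after surgery, hormone replacement or salt supplement. The description of these arrays reads Septum, whereas the source name and the start of the title read frontal cortex, so the region rests on the title code and the description. Whether the arrays come from separate animals or from pools is not given, so all p-values measure only the spread between these arrays.

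The adrenal cortex secretes corticosterone, the main glucocorticoid of the rat, with a daily peak near the start of the dark phase. Corticosterone binds 2 nuclear receptors in the brain, the glucocorticoid receptor (Nr3c1) and the mineralocorticoid receptor (Nr3c2), which enter the nucleus and raise or lower the transcription of target genes. The lateral septum, a set of GABAergic neurons between the lateral ventricles, receives hippocampal input and projects to the hypothalamus, and the medial septum holds cholinergic and GABAergic neurons that project to the hippocampus.

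Each array reported 1 linear signal per probe set, which was normalized between arrays and put on a log2 scale with a floor of 4, the level given to every signal of 16 or less. All 12 septum arrays had the same deposited mean signal after trimming, 150.04, and their median deposited signals ran from 54.73 to 61.8. The ratio of 3′ to 5′ signal lay between 0.956 and 1.197 for GAPDH and between 2.601 and 3.79 for beta-actin. Markers fitted the label only in part. Among 19 measured markers of septal neurons, the Sham septum had the highest mean of 7 regions for 8 (Trpc4, Zic1, Zic2, Zic4, Meis2, Gad1, Gad2 and Dlx1) and was first or second for 13. None of 11 cortical projection neuron markers was first or second in the septum. Of 9 striatal markers 6 were highest in the septum, which borders the striatum, and the striatum is not one of the 7 regions.

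Few genes passed the test, and those that moved most fell. Sult1a1, which encodes a sulfotransferase of phenols and catecholamines, Htra1, a secreted serine protease of the extracellular matrix, and Mepe, a phosphoglycoprotein best known from bone and teeth, were lower in ADX. Ncs1, a neuronal calcium sensor, and Lrrn4, a leucine-rich repeat membrane protein, were each higher on 1 dim probe set. In total 7 of 31042 probe sets passed limma's moderated test at an adjusted p under 0.05, with 2 higher and 5 lower, and 3 of the 7 lay below the 40th percentile of mean signal. The share called was 0.0226%. At an unadjusted p under 0.05 there were 3177 probe sets. At an adjusted p under 0.10 there were 62, or 0.2%, of which 27 were higher and 35 lower. The count of 7 became 1 without Sham PM1, 2 without Sham AM1 or Sham AM2, 3 without pADX PM1, 4 without pADX AM1, 11 without ADX AM1, 23 without ADX PM1 and 27 without ADX PM2. It was 0 when the pADX arrays did not share the estimate of the spread, with 2949 at an unadjusted p under 0.05.

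**Figure D1:**
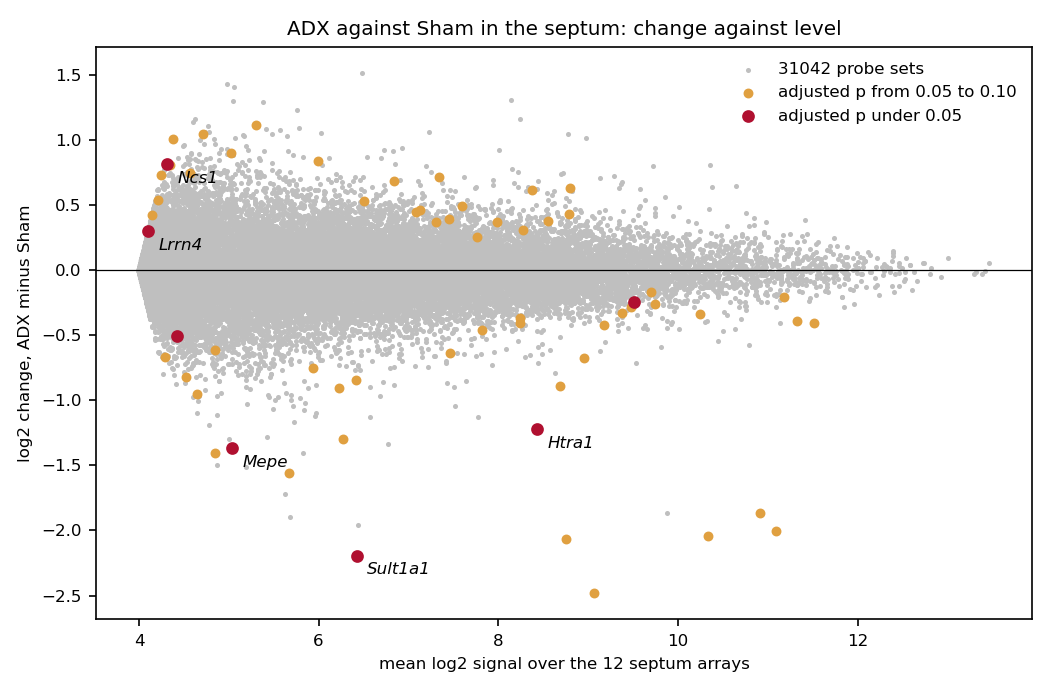
Each point is 1 probe set, with its mean log2 signal over the septum arrays on the horizontal axis and its log2 change, ADX minus Sham, on the vertical axis. The 7 probe sets that passed are in red, 2 of them without a gene name, and Sult1a1 lies lowest of them at -2.19.

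The promoters of the 3 named genes that fell are shown because glucocorticoid receptor binding near target genes is the textbook route of hormone action. They are the 250 bases before the annotated start in RefSeq's GRCr8 assembly, 5′ to 3′ on the gene's strand. The Sult1a1 window is chr1:190706113-190706362 on the minus strand, the Mepe window chr14:5736859-5737108 on the minus strand and the Htra1 window chr1:194927819-194928068 on the plus strand. The last, that of the kinase Map3k6 at chr5:150723995-150724244 on the plus strand, is shown because it was the one promoter of the list of glucocorticoid-induced genes that held the palindromic receptor motif, here in capitals.
Sult1a1: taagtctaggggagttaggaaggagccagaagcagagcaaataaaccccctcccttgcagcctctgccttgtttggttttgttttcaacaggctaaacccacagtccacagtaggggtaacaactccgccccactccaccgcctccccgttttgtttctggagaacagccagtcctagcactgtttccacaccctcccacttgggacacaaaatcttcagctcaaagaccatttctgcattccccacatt
Mepe: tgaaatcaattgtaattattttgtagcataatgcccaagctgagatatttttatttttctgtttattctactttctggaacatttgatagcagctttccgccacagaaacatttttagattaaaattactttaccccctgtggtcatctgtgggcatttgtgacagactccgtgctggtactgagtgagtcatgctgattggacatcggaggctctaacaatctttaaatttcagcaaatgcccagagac
Htra1: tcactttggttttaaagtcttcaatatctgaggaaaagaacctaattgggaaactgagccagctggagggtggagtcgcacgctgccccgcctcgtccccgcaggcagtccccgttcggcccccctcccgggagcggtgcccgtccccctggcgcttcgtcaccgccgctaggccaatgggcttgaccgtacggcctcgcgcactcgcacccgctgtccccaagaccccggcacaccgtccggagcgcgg
Map3k6: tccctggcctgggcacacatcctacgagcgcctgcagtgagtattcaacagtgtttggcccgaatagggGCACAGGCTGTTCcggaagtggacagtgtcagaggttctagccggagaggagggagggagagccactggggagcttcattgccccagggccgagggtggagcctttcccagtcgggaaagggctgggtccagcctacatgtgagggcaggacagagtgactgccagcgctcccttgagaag

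The motif searched was GNACA, 3 bases of any kind, then TGTNC, on both strands. In the 250 bases before the start it lay in 125 of 33469 promoters, or 0.373%. In the windows of 300 bases, which add 50 bases after the start, it lay in 147, or 0.439%. Of the 51 named genes 43 had a promoter in the table, and 1 of their 52 windows held it, that of Nts, which encodes neurotensin. Of the 50 glucocorticoid-induced genes 43 had a promoter, and 1 of 51 windows held it, starting 181 bases before the start of Map3k6. The windows of Sult1a1, Mepe and Htra1 held no match, which says only that these letters were not in these bases. Map3k6 itself had log2 signals of 4.31, 4.06, 4.10 and 4.28 in Sham and 4.01, 4.0, 4.82 and 4.98 in ADX, so the groups overlapped. Its change was 0.26 (SE 0.17, adjusted p = 0.66).

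Sult1a1 changed most among the genes that passed. Its log2 signal in Sham was 7.56 and 7.17 at AM and 7.68 and 7.41 at PM, and in ADX 5.15 and 5.43 at AM and 5.24 and 5.23 at PM. All ADX arrays lay far below all Sham arrays at both times. The group means were 7.46 ± 0.22 (SD, n = 4) and 5.26 ± 0.12 (SD, n = 4), a fall by 2.19 on the log2 scale (SE 0.13), or 4.57-fold, with a limma adjusted p of 0.00173. The pADX arrays, at 6.81, 6.51, 6.44 and 6.47, lay between the other groups, with a difference from Sham of -0.90 (adjusted p = 0.442). The call held in all 12 fits that left out 1 array, but not with only the 8 arrays compared (adjusted p = 0.0607).

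Htra1 was a bright transcript. Its signal was 9.05 and 9.04 at AM and 8.82 and 8.71 at PM in Sham, and 7.51 and 7.79 at AM and 7.90 and 7.54 at PM in ADX. Again no ADX array reached the lowest Sham array. It fell from 8.90 ± 0.17 to 7.68 ± 0.19 (SD, n = 4 each), by 1.22 on the log2 scale (SE 0.13), or 2.33-fold, with a limma adjusted p of 0.0351. The pADX arrays, at 9.02, 8.79, 8.67 and 8.41, overlapped Sham. The call was lost in 8 of 12 fits without 1 array, with an adjusted p of up to 0.192 over all settings. It held without ADX AM1, ADX PM1, ADX PM2 or pADX PM2, and the change kept its direction throughout, between -1.39 and -1.12.

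Mepe was dimmer. Sham arrays read 5.74 and 5.53 at AM and 5.55 and 5.30 at PM, and ADX arrays 4.21 and 4.24 at AM and 4.0 and 4.20 at PM. The ADX arrays lay at or just above the floor, and those of Sham well above it. Mepe fell by 1.37 (SE 0.12), at least 2.58-fold because 1 ADX array was at the floor, with a limma adjusted p of 0.0177. The pADX arrays, from 5.22 to 5.60, were near Sham. The call was lost without Sham AM1, Sham PM1 or Sham AM2. It was also lost with a floor of 32, with the replicate number as a block and with only the 8 arrays compared. Over all settings the change ran from -1.45 to -0.53, with an adjusted p of up to 0.187.

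The 2 genes that passed as higher were near the floor. For Ncs1 the probe set that passed read 4.22, 4.0, 4.0 and 4.0 in Sham and 4.89, 4.95, 4.95 and 4.69 in ADX. It did not overlap between groups, and all 4 pADX arrays read 4.0. It rose by 0.82 (SE 0.06), at least 1.76-fold, with a limma adjusted p of 0.00682, while the other Ncs1 probe sets had changes of -0.01, -0.10 and 0.05. The call was lost without Sham PM1, with 16 added in place of a floor (adjusted p = 0.0607) and with only the 8 arrays compared (adjusted p = 0.173), and a floor of 32 left no change to measure. Lrrn4 read 4.0 in all Sham arrays and 4.40, 4.25, 4.22 and 4.34 in ADX, a rise of 0.30 (SE 0.03), at least 1.23-fold, with a limma adjusted p of 0.037. A second Lrrn4 probe set had a change of -0.38 (adjusted p = 0.737), and the call held in 3 of 12 fits without 1 array and not with the replicate block, a floor of 32 or 16 added. The last 2 probe sets that passed have no gene name here. One was bright, at 9.67, 9.61, 9.63 and 9.69 in Sham and 9.38, 9.43, 9.36 and 9.45 in ADX, a small fall of 0.24 (SE 0.03, adjusted p = 0.0351). The other was dim, fell by 0.50 (SE 0.05, adjusted p = 0.0258) and had 1 ADX array at the floor.

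**Figure D2:**
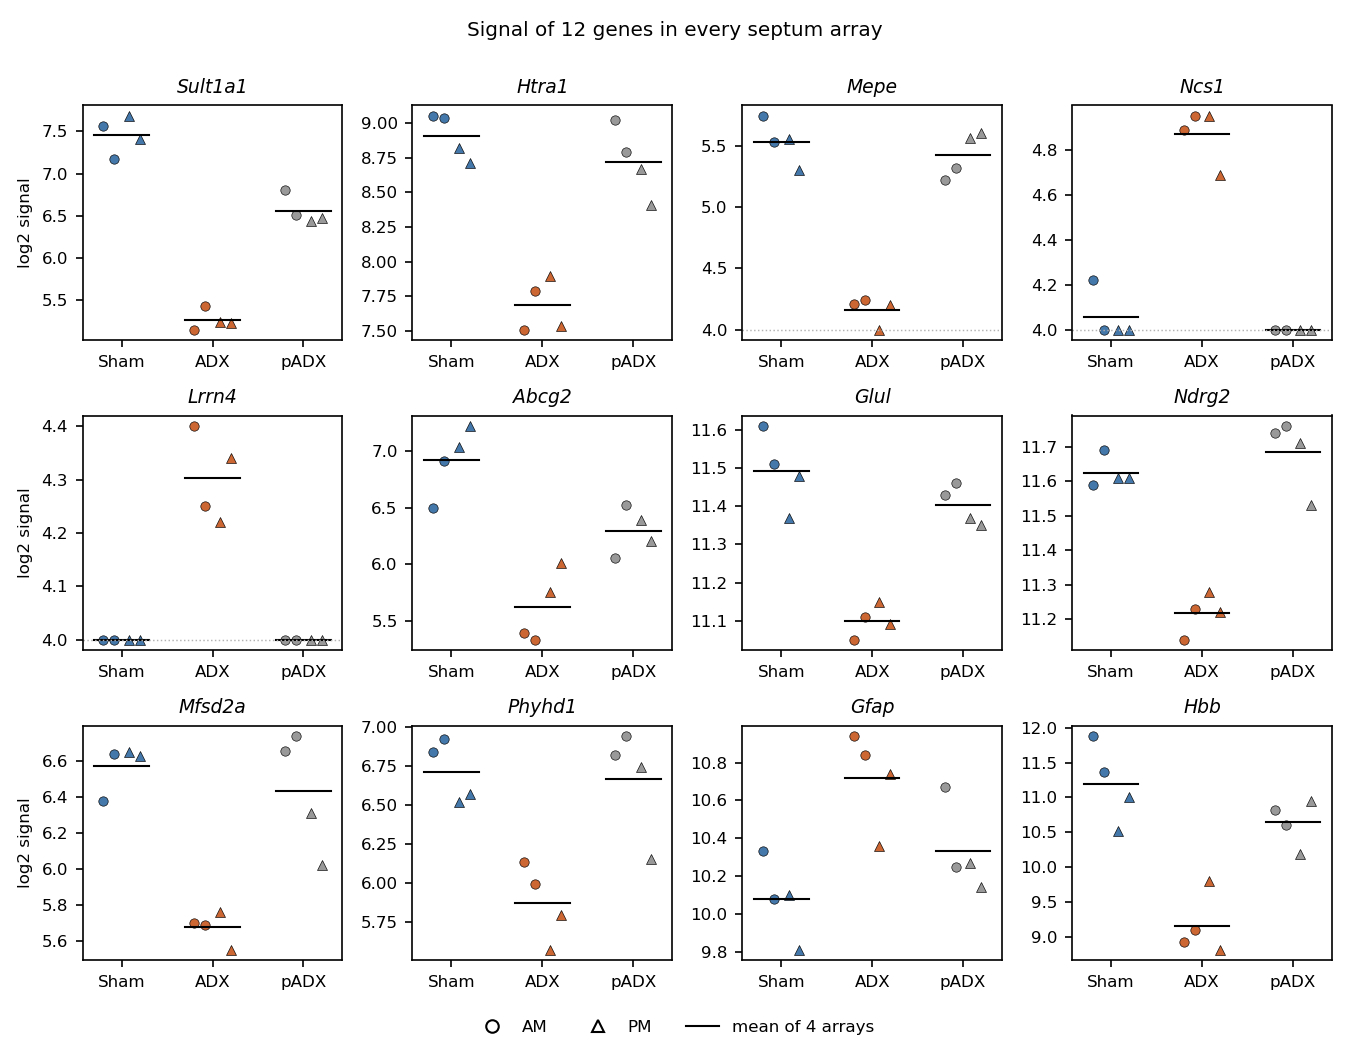
Log2 signal of named genes in every septum array, by treatment, with circles for AM, triangles for PM, a bar at the mean of 4 arrays and a dashed line at the floor of 4. In Sult1a1, Htra1 and Mepe the 4 ADX arrays lie under all Sham arrays.

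Abcg2, Mfsd2a, Glul, Ndrg2, Gfap and Hbb missed the threshold over all probe sets, and passed when the 40% of probe sets with the lowest mean signal were left out before the adjustment. That setting called 83 of 18625 probe sets, or 0.446%, with 31 higher and 52 lower, and it kept 3 of the 7 calls, Sult1a1, Htra1 and Mepe. The filter used the mean over all septum arrays, a log2 signal of 4.82, so a probe set could pass it through the group where it was high, as Mepe did with an ADX mean of 4.16. The count fell to 23 without Sham AM1, 26 without ADX AM1, 30 without Sham PM2, 42 without ADX PM1, 48 without Sham AM2 and 50 without ADX AM2 or pADX PM1. It was 38 with only the 8 arrays compared. With the level of striatal markers as a covariate, chosen after seeing the data, it was 12, and all 12 were among the 83.

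Abcg2, an efflux transporter of brain capillary endothelium, read 6.50, 6.91, 7.04 and 7.22 in Sham and 5.39, 5.33, 5.75 and 6.01 in ADX. The ADX arrays lay under all Sham arrays, with means of 5.62 and 6.92 and a change of -1.30 (SE 0.16, adjusted p = 0.0604 over all probe sets and 0.00155 without dim ones). Mfsd2a, which carries lysophosphatidylcholine across the same endothelium, read 6.38, 6.64, 6.65 and 6.63 in Sham and 5.70, 5.69, 5.76 and 5.55 in ADX. Its groups were also apart, with a change of -0.90 (SE 0.14, adjusted p = 0.0917 and 0.0195). A further efflux pump, Abcb1a, picked after its values were seen, had a change of -0.99 (adjusted p = 0.16 and 0.0429) on one probe set and 0.25 (adjusted p = 0.705) on its brightest. The endothelial marker list as a whole had a median change of -0.01 over 12 genes.

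Glul, the glutamine synthetase of astrocytes, read 11.61, 11.51, 11.37 and 11.48 in Sham and 11.05, 11.11, 11.15 and 11.09 in ADX. Its groups did not overlap, the change was -0.39 (SE 0.05, adjusted p = 0.0604 over all probe sets and 0.0048 without dim ones), and its other probe sets had -0.59 and -0.58. Ndrg2, an astrocyte gene of the N-myc downstream-regulated family, read 11.59, 11.69, 11.61 and 11.61 in Sham and 11.14, 11.23, 11.28 and 11.22 in ADX. It had a similar shift of -0.41 (SE 0.05, adjusted p = 0.07 and 0.0048), and its pADX arrays, from 11.53 to 11.76, were at the Sham level. Aldoc, the aldolase of astrocytes, had a change of -0.40 (SE 0.07, adjusted p = 0.116 and 0.0187). Gfap, the intermediate filament of astrocytes, lay on the other side. It read 10.33, 10.08, 10.10 and 9.81 in Sham and 10.94, 10.84, 10.36 and 10.74 in ADX, where every array exceeded every Sham array, and its change was 0.64 (SE 0.12, adjusted p = 0.153 and 0.0137). The 11 astrocyte markers had a median change of -0.07 and their summed signal spanned 20215 to 22212 in Sham and 19586 to 20992 in ADX.

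Hbb, a beta chain of haemoglobin carried by red blood cells, had signals of 11.88, 11.37, 10.52 and 11 in Sham and 8.92, 9.09, 9.80 and 8.81 in ADX. The groups were apart, with a change of -2.04 (SE 0.32, adjusted p = 0.0879 over all probe sets and 0.00101 without dim ones). Alas2, the haem synthesis enzyme of red cell precursors, read 6.20, 5.30, 5.36 and 4.80 in Sham and 4.0, 4.0, 4.04 and 4.0 in ADX, a change of -1.41 against a group with 3 of 4 arrays at the floor (adjusted p = 0.0932 over all probe sets). The summed signal of the 5 blood markers ran from 1555 to 3889 in Sham, 475 to 935 in ADX and 1237 to 2052 in pADX. Hbb made up most of this linear sum, so the sum largely repeats the Hbb values. Of the 5 markers 3 were lower, 1 higher and 1 at 0 in ADX, with a median change of -0.13. Over all probe sets 0 of them passed. Slc4a1, the anion exchanger of red cells, had a change of 0.01, and the neutrophil gene S100a8 was at the floor in all 8 arrays. The summed blood signal did not overlap between Sham and ADX, and its part in the other changes was not tested. The summed signal of 6 thalamus markers did not overlap either, at 826 to 1130 in Sham, 676 to 811 in ADX and 861 to 969 in pADX. Of these 6 markers 5 were lower and 1 higher in ADX, where 5866 of all 14217 genes were lower and 6801 higher. Their median change was -0.19, 0 passed over all probe sets, and the groups overlapped in each single marker. The largest change was that of Prkcd, at -0.71 (adjusted p = 0.164 over all probe sets and 0.0257 without dim ones). Whether the amount of thalamic tissue differed was not tested. In bulk tissue fewer cells of a type and less RNA per cell cannot be told apart.

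Other genes near the threshold were of varied function. Wipf3, an actin regulator of the WASP-interacting family, read 9.35, 8.92, 9.24 and 8.82 in Sham and 8.31, 8.07, 8.23 and 8.15 in ADX, without overlap (change -0.89, adjusted p = 0.071). Phyhd1, a dioxygenase, had a change of -0.84 (SE 0.12, adjusted p = 0.07), and Aadat, a kynurenine aminotransferase, one of -0.75 (adjusted p = 0.0867). Paqr8, a membrane progestin receptor, read 9.22, 9.15, 9.32 and 9.22 in Sham and 8.49, 8.65, 8.72 and 8.34 in ADX. Its change was -0.68 (SE 0.11, adjusted p = 0.0879), with -0.62 and -0.50 on its other probe sets. Fpgt, an enzyme of fucose salvage, had -0.62 (adjusted p = 0.0604) on one probe set and -0.15 on another. Prrc2b had -0.67 (adjusted p = 0.07) with 2 ADX arrays at the floor, whereas its other probe sets had changes from 0.17 to 0.38. Among genes with higher signals in ADX, Stt3a, a catalytic subunit of the oligosaccharyltransferase, had a change of 0.84 (adjusted p = 0.07) and a second probe set of -0.19. Abl1, a tyrosine kinase, had 0.53 (adjusted p = 0.07), Adissp 0.63 (adjusted p = 0.0703), the plasmalogen enzyme Peds1 0.69 (adjusted p = 0.071) and the small acidic protein gene Ptms 0.61 (adjusted p = 0.0867). Tchp had 0.90 on one probe set and 0.12 on another, and Amh and Ubap1l, with arrays at the floor in Sham, had 0.81 and 1.01 (adjusted p = 0.0837 and 0.0867).

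Genes that glucocorticoids are known to induce were lower more often than higher. Of 50 listed genes 47 were measured, 32 lower and 12 higher in ADX, with 3 at 0 because all arrays were at the floor. Over all 14217 genes 5866 were lower and 6801 higher. The median change was -0.22 in ADX, 0.00 for pADX against Sham, and 0.00 over all 14217 genes for ADX. One gene passed over all probe sets, Sult1a1. At an unadjusted p under 0.05, 12 were lower and 2 higher, where 4.91% of all genes were lower and 7% higher. In 10 of the 47 all 4 ADX arrays were below all 4 Sham arrays and in 0 above, against 2.44% and 3.46% of all genes. Without dim probe sets 5 genes passed as lower on their brightest probe set (Sult1a1, Glul, Ndrg2, Mfsd2a and Angptl4) and 0 as higher. That setting called 0.446% of its probe sets. Gpd1 did not pass on its brightest probe set. A dimmer one, with 2 ADX arrays at the floor, had a change of -1.49 (adjusted p = 0.141 over all probe sets) and cleared the filter through Sham, at 5.52, against 4.03 in ADX. The list was drawn up with earlier results of these data known, so its counts are a description. Leaving out 1 array moved its median between -0.23 and -0.09.

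Angptl4, an inhibitor of lipoprotein lipase, read 5.95, 5.92, 6.42 and 5.82 in Sham and 5.10, 5.08, 5.10 and 5.05 in ADX. All ADX arrays were close together under the Sham arrays, and the change was -0.94 (SE 0.18, adjusted p = 0.159). Pdk4, a kinase that restrains pyruvate dehydrogenase, read 5.53, 5.54, 5.97 and 5.47 in Sham and 5.05, 4.69, 4.67 and 5.22 in ADX, without overlap (change -0.72, SE 0.16, adjusted p = 0.182). The metal-binding gene Mt2A had a change of -0.42 (SE 0.09, adjusted p = 0.165), the secreted phospholipase Pla2g3 -0.73 (adjusted p = 0.182), the caveolar gene Cavin2 -0.51 and the GTPase Rhob -0.37. Several widely used readouts of glucocorticoid action had smaller changes on their brightest probe set. Fkbp5, a co-chaperone of the receptor, had -0.29 (adjusted p = 0.648) and a second probe set -1.05 (adjusted p = 0.236), Tsc22d3, also called Gilz, -0.26 (adjusted p = 0.59), the zinc finger factor Klf9 -0.17 and the mTOR inhibitor Ddit4 -0.04. The 2 genes with higher signals at an unadjusted p under 0.05 were Lyve1, a hyaluronan receptor, at 0.58 (SE 0.13, adjusted p = 0.173), and the water channel Aqp4 at 0.18.

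**Figure D3:**
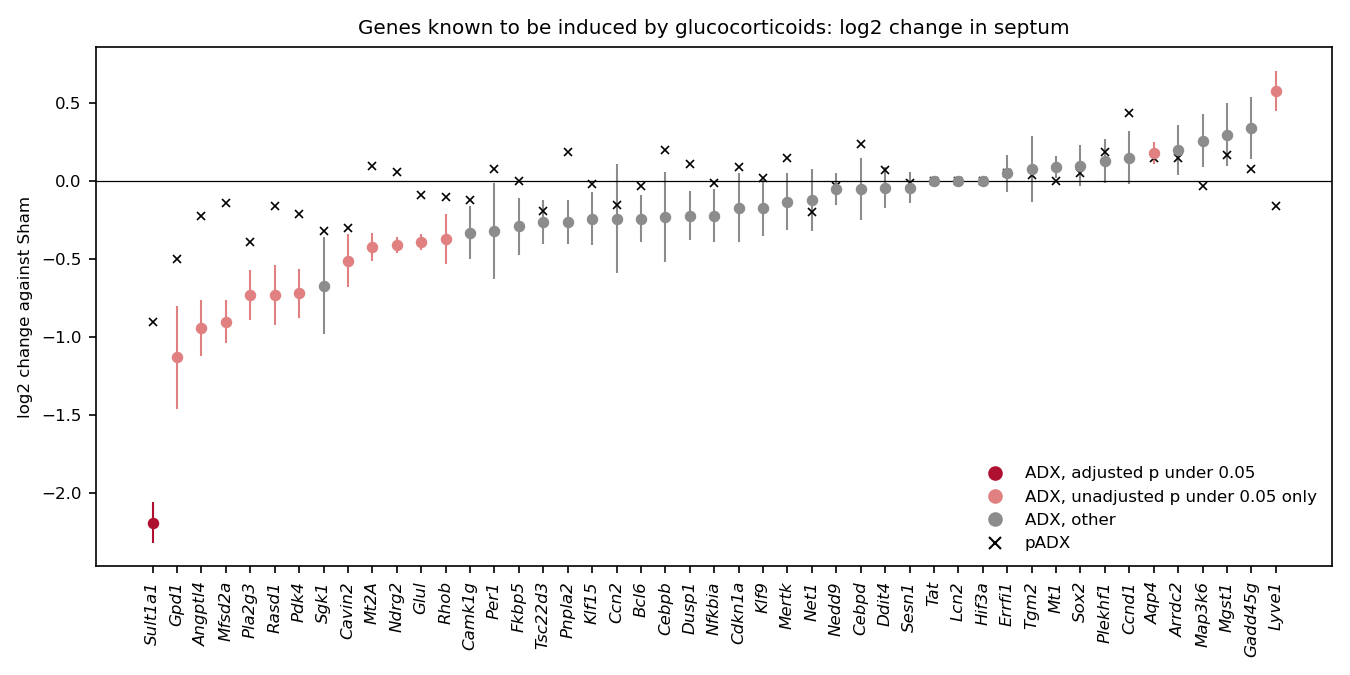
Log2 change against Sham for the measured genes of the glucocorticoid-induced list, with circles for ADX, bars for its standard error and crosses for pADX. Sult1a1 is the one gene that passed over all probe sets, and 32 of the 47 circles lie under 0.

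Fuel metabolism genes were also lower more often than higher. Gpd1, Pdk4 and Angptl4 are on both lists, and this list too was chosen with earlier results of these data known, so its counts are a description. Of 32 measured, 23 were lower and 8 higher in ADX, with a median of -0.13. At an unadjusted p under 0.05, 9 were lower and 0 higher, where 4.91% of all genes were lower and 7% higher. Aifm3, a mitochondrial flavoprotein, read 7.03, 6.92, 6.89 and 7.02 in Sham and 5.36, 5.70, 5.95 and 6.34 in ADX. The ADX arrays were spread out but all under Sham, and the change was -1.13 (SE 0.19, adjusted p = 0.122). None of this list passed over all probe sets. Aifm3, Aldoc, Angptl4 and Phyhd1 did on their brightest probe set when dim probe sets were left out, a setting that called 0.446% of its probe sets.

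The receptors themselves did not pass. Nr3c1 had a change of 0.11 (adjusted p = 0.789) and Nr3c2 of 0.19 (adjusted p = 0.461). Hsd11b1, which regenerates active glucocorticoid inside cells, had -0.41 (adjusted p = 0.455), although its groups did not overlap. Of 18 measured genes of the receptors and the hypothalamic-pituitary-adrenal axis 0 passed and the median change was 0.00. Avpr1a, the vasopressin receptor of the septum, had a change of -0.29 with all 4 ADX arrays at the floor, the peptide gene Avp one of 0.38 against Sham arrays at the floor, and Crh, corticotropin-releasing hormone, one of -0.07. Crhr2, the receptor typical of the lateral septum, was not among the named probe sets.

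The transmitter and peptide genes of septal neurons gave no call. Of 36 measured neuropeptide and receptor genes 5 were higher and 0 lower at an unadjusted p under 0.05, with a median of 0.02, and 0 passed. Over all 14217 genes 7% were higher and 4.91% lower at that level. Nts had a change of -0.38 (adjusted p = 0.568), the somatostatin gene Sst 0.00, the GABA-synthesising enzyme Gad1 0.09, the cholinergic enzyme Chat 0.00 and the neurotrophin receptor Ngfr 0.01. Among 44 GABA, cholinergic and monoamine genes 2 were higher and 3 lower at that level, and among 21 glutamate genes 1 each way, and both medians were 0.00. Immediate early genes (24), trophic factors (28), salt and ion transport (27), inflammation (34) and chaperones of the endoplasmic reticulum (18) had medians from -0.08 to 0.03, and no member passed. At an unadjusted p under 0.05, 4 immediate early genes were higher and 0 lower. For the other lists, in the same order, these counts were 1 and 3, 1 and 2, 0 and 2, and 0 and 2. Values of single members included Adrb1, a beta-adrenergic receptor, at 0.77, Htr1a, Htr2a and Htr7, serotonin receptors, at -0.55, -0.48 and -0.46, Tgfb2 at -0.63 (adjusted p = 0.202) and Ntf3 at -0.43 (adjusted p = 0.164). Igfbp5, a binding protein of insulin-like growth factors, had 0.57 (adjusted p = 0.352).

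Of 9 measured striatal markers 8 had a higher mean in ADX and 1 a lower one, against 6801 and 5866 of all 14217 genes. Of these markers 0 passed, and their median change was 0.54 in ADX and 0.60 in pADX. Their summed signal ran from 1708 to 3039 in Sham, 2667 to 5441 in ADX and 3354 to 3963 in pADX, so Sham and ADX overlapped, and none was at the floor in every array. Their part in the changes was not tested, although their level served as a covariate in a fit chosen after seeing the data. Ppp1r1b, the DARPP-32 gene of medium spiny neurons, had a change of 1.05 (adjusted p = 0.264), Adora2a 0.94 (adjusted p = 0.332) on its brightest probe set and 1.29 (adjusted p = 0.202 over all probe sets and 0.0491 without dim ones) on another, and Drd1 0.37 (adjusted p = 0.705). Among the 31 probe sets higher without dim ones were Pcp4l1 at 1.16, Foxp1 at 0.75 and Pde1b at 0.75, chosen after their values were seen, which are abundant in striatum. With the striatal marker level as a covariate 0 of 31042 probe sets passed (2350 at an unadjusted p under 0.05). With it the changes were -2.07 for Sult1a1 (adjusted p = 0.0516), -1.39 for Htra1 (adjusted p = 0.106) and -1.18 for Mepe (adjusted p = 0.131). Without it they were -2.19, -1.22 and -1.37. On the log2 scale the covariate ran from 10.75 to 11.57 in Sham and 11.38 to 12.41 in ADX, so it partly went with treatment. The summed septal neuron markers spanned 7743 to 8646 in Sham and 7172 to 9061 in ADX, with a median change of -0.04 over 19 genes. Of the 19, 12 were lower and 7 higher in ADX, with changes from -0.73 to 0.09, and 0 passed. At an unadjusted p under 0.05, 3 were lower and 0 higher, where 4.91% of all genes were lower and 7% higher. Among the lower ones the channel gene Trpc4 had a change of -0.70 (adjusted p = 0.299). The zinc finger genes Zic1, Zic2 and Zic4, typical of septum, had -0.33, -0.73 and -0.38 (adjusted p = 0.446, 0.485 and 0.573). In each of these genes Sham and ADX arrays overlapped. Choroid plexus markers were high in 1 Sham array, AM2, at 2057 against at most 325 in the others, and reached at most 872 in ADX. Their median change was -0.07 over 8 genes, of which Kl was at the floor in all 8 arrays. Of 11 microglial markers 10 were higher and 1 lower in ADX, with a median of 0.20 and changes from -0.20 to 0.41, and 0 passed. At an unadjusted p under 0.05, 1 was higher and 0 lower, against 7% and 4.91% of all genes. Csf1r, the receptor of colony-stimulating factor 1, was among the higher ones, at 0.40 (SE 0.10, adjusted p = 0.226).

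**Figure D4:**
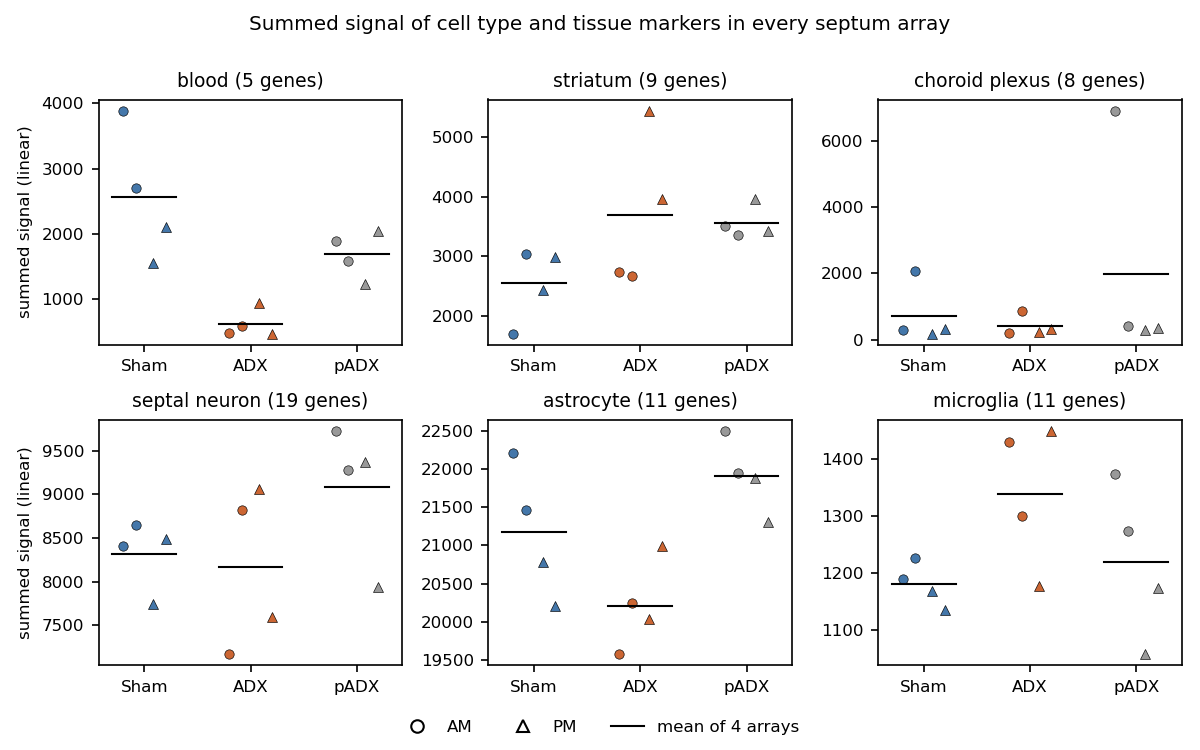
Summed linear signal of marker genes in every septum array, by treatment, with circles for AM, triangles for PM and a bar at the mean of 4 arrays. Vertical axes do not start at 0. The blood marker sum, mostly Hbb, lies between 475 and 935 in ADX and between 1555 and 3889 in Sham. Striatal markers lie between 2667 and 5441 in ADX and between 1708 and 3039 in Sham.

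Gpd1, Sgk1 and Rasd1 had larger ADX changes at PM than at AM, and these differences did not pass the test. Gpd1, the glycerol phosphate dehydrogenase, read 7.84 and 7.41 at AM and 9.08 and 8.96 at PM in Sham, and 7.31 and 7.20 at AM and 7.20 and 7.07 at PM in ADX. Sham was higher at PM, and ADX was level across the day. The ADX change was -0.37 at AM and -1.89 at PM, and their difference was -1.52 (SE 0.21, limma adjusted p = 0.192). The kinase Sgk1 read 8.02, 8.06, 9.56 and 8.87 in Sham and 8.07, 7.81, 8.0 and 7.97 in ADX, so the 2 Sham PM arrays stood above the rest. Its change was -0.10 at AM and -1.23 at PM (difference -1.14, SE 0.29, adjusted p = 0.624). Rasd1, a Ras-like GTPase induced by dexamethasone, read 8.02, 8.04, 8.56 and 8.30 in Sham and 7.60, 7.83, 7.24 and 7.33 in ADX. Its change was -0.32 at AM and -1.15 at PM (difference -0.83, SE 0.21, adjusted p = 0.622), and over both times -0.73 (SE 0.19, adjusted p = 0.226). The glucocorticoid-induced list had a median of -0.06 at AM and -0.32 at PM.

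Clock genes gave no call either. Per2, a repressor of the clock, read 7.46, 7.42, 7.94 and 7.97 in Sham and 7.84, 7.83, 7.61 and 7.78 in ADX. Sham was higher at PM than at AM, and the ADX arrays lay between. Its change was 0.39 at AM and -0.26 at PM (difference -0.65, SE 0.22, adjusted p = 0.756). Bmal1, the activator, had a change of -0.71 at AM and -0.13 at PM, and Dbp, an output factor, one of 0.70 at AM and 0.25 at PM. Bhlhe41, also called Dec2, was at 8.75, 8.87, 9.11 and 8.93 in Sham and 9.19, 9.35, 9.24 and 9.30 in ADX, without overlap (change 0.36, SE 0.07, adjusted p = 0.16). Per1 had -0.32 and Nr1d2 0.16, and the 20 clock genes had a median of 0.07.

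The test of whether the ADX change depended on time of day called 21 of 31042 probe sets, or 0.0677%, with 10 higher and 11 lower at PM relative to AM. All 21 lay below the 40th percentile of mean signal, and 16 had at least 6 of the 8 arrays at the floor. The named ones were Arl6ip6 (0.94, SE 0.08, limma adjusted p = 0.0127), Fem1b (-0.94, SE 0.08, adjusted p = 0.0209) and Col5a1 (-0.29, SE 0.02, adjusted p = 0.00818). Fem1b read 4.0 in all Sham arrays and 5.09, 4.92, 4.12 and 4.0 in ADX, a change at AM near the floor. Without dim probe sets 0 passed, with 1238 at an unadjusted p under 0.05, and the smallest adjusted p of a brighter probe set was 0.177. Leaving out any 1 Sham or ADX array raised the count to between 151 and 265.

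**Figure D5:**
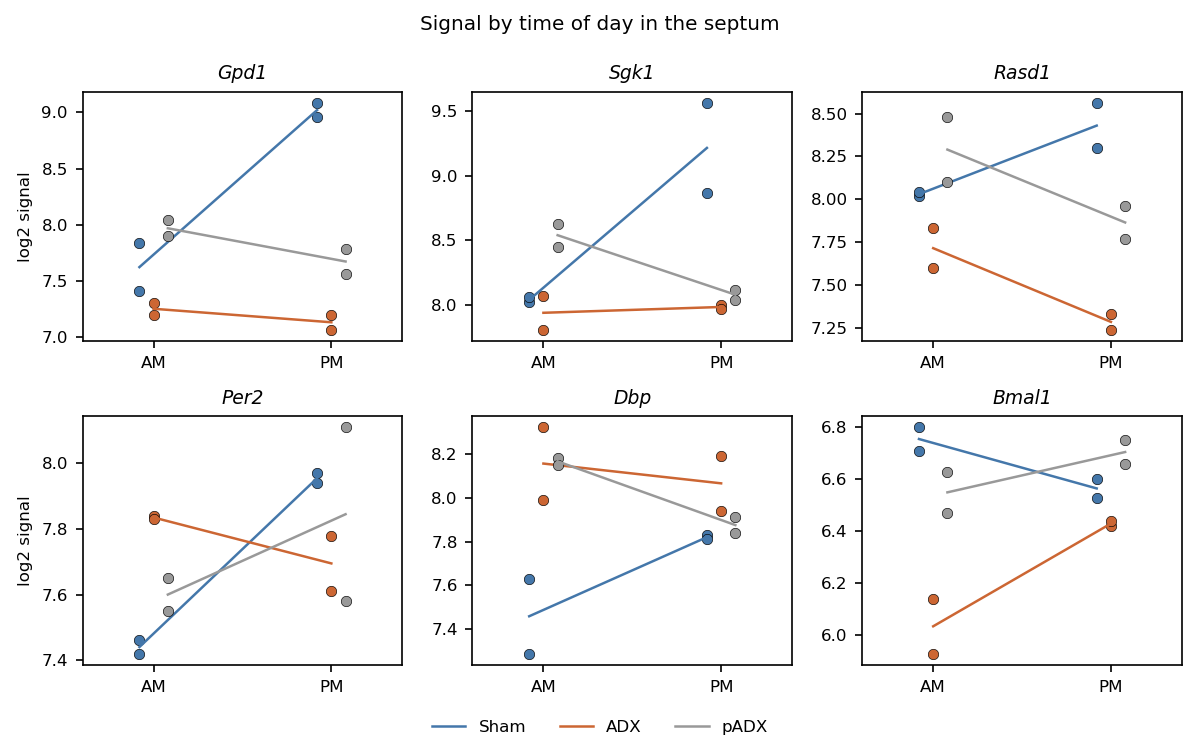
Log2 signal of 6 genes at AM and PM in every septum array, with lines through the means of 2 arrays for Sham, ADX and pADX. For Gpd1 the Sham arrays lie at 7.84 and 7.41 at AM and at 9.08 and 8.96 at PM, while the ADX arrays stay between 7.07 and 7.31.

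The pADX reference shares its Sham arrays with the ADX comparison, so the values are given side by side and nothing is read from their likeness. For pADX against Sham 0 of 31042 probe sets passed in limma's test, or 0%, with 1691 at an unadjusted p under 0.05 and a smallest adjusted p of 0.362. The changes of pADX against Sham were -0.90 for Sult1a1, -0.18 for Htra1, -0.10 for Mepe and -0.55 for Hbb. ADX against pADX called 3 probe sets, with 2792 at an unadjusted p under 0.05. These were Ncs1 at 0.87 (adjusted p = 0.00787), Sult1a1 at -1.29 and Mepe at -1.26 (both adjusted p = 0.047).

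The falls of Sult1a1 and Htra1 were not shown to differ from those in the amygdala or frontal cortex. Sult1a1 means went from 7.24 to 5.07 in the amygdala and from 7.86 to 6.21 in the frontal cortex, and the septal change minus theirs was -0.02 (SE 0.23) and -0.54 (SE 0.25). Htra1 means went from 8.62 to 7.28 and from 9.13 to 7.96. Mepe means moved less there, from 4.84 to 4.63 in the amygdala and from 4.92 to 4.40 in the frontal cortex. Its septal change minus theirs was -1.16 (SE 0.40, adjusted p = 0.453) and -0.85 (SE 0.43, adjusted p = 0.345), so neither difference passed. The test of septum minus amygdala called 1 of 31042 probe sets, or 0.00322%, and 2498 at an unadjusted p under 0.05. It was Cdca2, a cell division gene, at 4.0 in all Sham arrays of the septum and 4.34, 4.52, 4.28 and 4.55 in ADX, and at the floor in all amygdala arrays (difference 0.42, SE 0.05, limma adjusted p = 0.000439). With a floor of 32 the count was 0, with 2170 at an unadjusted p under 0.05. It was 38 without amygdala Sham PM1, 9 without septum ADX PM2, 6 without septum Sham AM2, 5 without septum Sham PM1 and 3 without septum pADX AM2.

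Septum minus frontal cortex called 91 probe sets, or 0.293%, with 31 higher and 60 lower. Frontal cortex had 3 arrays of each treatment. Nrtn, the growth factor neurturin, differed by 1.81 (SE 0.29, limma adjusted p = 0.00881), with septal means of 4.01 in Sham and 4.57 in ADX and frontal means of 5.34 and 4.09. Cep290, a gene of the ciliary transition zone, differed by -1.95 (SE 0.27, adjusted p = 0.00109), with 6.73 and 5.96 in the septum and 4.82 and 6.0 in the frontal cortex. In both genes much of the difference came from the frontal cortex moving the opposite way. Without frontal cortex Sham PM1 the count was 2426, with all 91 among them, and frontal cortex Sham PM2 had the lowest mean correlation with the other arrays of its region, 0.966 against 0.974 to 0.981. The count was 16 without septum Sham AM1. It was between 33 and 60 without septum ADX AM1, ADX PM1, pADX PM1 or Sham AM2, without frontal cortex ADX PM1, Sham AM2, ADX AM2, Sham PM2 or ADX PM2, and without amygdala ADX PM1 or Sham AM2.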

How the data were processed

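Total RNA of rat brain was measured on 82 arrays of 31099 probe sets. The deposited values are linear intensities, 1 per probe set and array, as their distribution shows. By what software and scaling the authors made them is not given in the sources at hand. All 82 arrays were brought to 1 distribution by quantile normalization. Signals under 16 were raised to 16 before taking log2, which affected 27.46% of values. After dropping 57 control probe sets, 31042 were tested. Normalization on ranks removes any shift shared by all genes, and the floor understates changes of dim genes.

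limma 3.58.1 in R 4.3.3 was fitted to the 12 septum arrays (lmFit, eBayes with a trend), with additive terms for treatment and time, 2-sided, and Benjamini-Hochberg adjustment over the 31042 probe sets. Time dependence used 6 means of treatment by time. Differences between regions used 34 arrays of septum, amygdala and frontal cortex. A probe set was called at an adjusted p under 0.05. Every adjusted p in the text is limma's. The scripts were tested on simulated data. The number of arrays limits the precision.

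Probe sets were named from the platform annotation: 20826 carried 1 symbol, 436 several and 9780 none, and 20758 were matched to RefSeq's GRCr8 gene table. For lists, each of 14217 genes was given by its brightest probe set. Named genes were, in each direction, up to 15 probe sets that passed, with 1 symbol and at least 3 of 4 arrays of the higher group above the floor, filled to 10 by the smallest p with a change of at least 0.5, plus 5 per direction in the other tests, list members that passed and a panel. The comparison, lists and panel were chosen with earlier results of these data known.

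Same-numbered septum arrays had correlations of their deviations from the group means between -0.112 and 0.115. These were taken over all probe sets at once, so they cannot show whether some genes are paired by replicate number. No 2 arrays held identical values. Alternatives changed the normalization, the floor, the filter on dim probe sets, the model terms and the arrays included. Figures were drawn with matplotlib 3.10.9 in Python 3.11.15.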

Additional observations from a re-analysis of the deposited data

Results flagged for a closer look

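In groups of 4 arrays, 1 array stood apart from the others in 11 of 134 groups of gene values and 2 of 21 groups of marker sums. For like arrays with a normal spread chance gives about 1 in 20. Here each group mixed AM and PM arrays, and the genes were picked, so the counts cannot be read against that rate. Where all other arrays are at the floor, as for Ncs1 and Alas2, any value above it is flagged. Among Sham arrays, AM1 stood apart for Ncs1 (4.22 against 4.0), Peds1 (6.76 against 6.45 to 6.49), Mfsd2a (6.38 against 6.63 to 6.65) and the striatal gene Adora2a (5.28 against 6.57 to 6.81). Sham PM1 did so for Abl1 (6.39 against 6.20 to 6.22) and Pdk4 (5.97 against 5.47 to 5.54), and Sham PM2 for Sst (9.30 against 9.49 to 9.52). Of the ADX arrays, PM1 stood apart for Mepe (4.0 against 4.20 to 4.24), Klf9 (9.23 against 8.85 to 8.86), Nr1d2 (9.38 against 9.19 to 9.22) and Alas2 (4.04 against 4.0). The summed signal of choroid plexus markers was 2057 in Sham AM2 against 182 to 325 in the other Sham arrays, and 6910 in pADX AM1 against 278 to 410 in the other pADX arrays.

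The ADX change differed, by a test of the difference itself, between septum and amygdala for Cdca2 (0.42). Between septum and frontal cortex it differed for Nrtn (1.81), Mgst2 (1.37), Plek (1.07), Coro2b (0.98) and Zfp64 (0.91), higher in the septum, and for Cep290 (-1.95), Zfp26 (-1.79), Pnisr (-1.70), Katnbl1 (-1.60) and C5h8orf88 (-1.58), lower in the septum. Coro2b, an actin-binding coronin, went from 7.78 to 8.56 in the septum and from 8.72 to 8.52 in the frontal cortex. Between PM and AM in the septum the ADX change differed for Arl6ip6 (0.94), Fem1b (-0.94) and Col5a1 (-0.29), all near the floor.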

How the results depend on the processing

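The count of 7 probe sets for ADX against Sham in the septum was 29 on the deposited values, 28 with arrays set to a common median, 50 with 16 added in place of a floor, 83 without dim probe sets, 2 with the replicate number as a block, 0 with only the 8 arrays compared (2949 at an unadjusted p under 0.05), 62 at an adjusted p under 0.10 and 0 with the striatal covariate (2350 unadjusted). The last 2 were chosen after seeing the data. On the deposited values 19 were higher and 10 lower, with a common median 8 and 20, against 2 and 5 as reported. Leaving out 1 array gave 1 to 27. The count of 21 for time dependence was 0 with 16 added (1913 unadjusted) or without dim probe sets (1238 unadjusted), and 21 to 265 without 1 array. For pADX the count was 1 when quantile normalization covered only the compared arrays, 1 on the deposited values, and 0 to 6 without 1 array. Septum minus amygdala gave 0 with a floor of 32, with 16 added or without dim probe sets, and 1 to 38 without 1 array. Septum minus frontal cortex gave 174 on the deposited values, 31 with a common median, 292 with 16 added, 597 without dim probe sets, 58 with the replicate block, 166 with a random block of treatment, time and replicate, and 16 to 2426 without 1 array. The cause was not tested. Among the named genes the replicate block took the calls from Mepe, Htra1 and Lrrn4, not from Sult1a1 or Ncs1. Changes that turned sign, none of them called, included Crh at 0.02 on the deposited values, 0.24 with the striatal covariate and -0.21 to 0.12 without 1 array, Per2 at -0.01 with a common median, Per1 at 0.01 and Gad1 at -0.04 with the striatal covariate, Ngfr at -0.05 with a floor of 32 and -0.11 with the striatal covariate, and without 1 array Ngfr down to -0.20 and Ddit4 from -0.14 to 0.03. Chat and Sst, at 0.00 as reported, ran from -0.33 to 0.23 and from -0.08 to 0.05 over all settings. Dim probe sets limit what can be read near the floor.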
